A study of Sus scrofa with 24 samples.

Results

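The comparison set longissimus dorsi muscle of 3 gilts fed olive oil against that of 3 gilts fed beef tallow, 6 of the 24 pigs in the series, chosen by their labelled sex and fat. A gilt is a young female pig that has not farrowed, and longissimus dorsi is the long back muscle along the spine. The olive oil gilts carried the running numbers 4, 7 and 12 and the beef tallow gilts the numbers 2, 8 and 10. All 6 were Landrace × Large White × Duroc crosses whose feed contained 3.0% of the named fat. Every pig in the study was allotted at about 71 kg and 130 days of age to 1 of 24 pens holding 3 pigs each, and the labels do not tie the sampled pigs to pens. The other arrays of the study held gilts fed coconut oil or soybean oil and barrows (castrated males) on all 4 fats. Total RNA of each pig was hybridised to 1 Affymetrix porcine array, and values are the deposited probe-set signals, compared as log2(signal + 1) over 23999 non-control probe sets, of which 10069 carry 1 gene symbol.

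Olive oil is rich in oleic acid, a monounsaturated fatty acid, whereas beef tallow holds more saturated palmitic and stearic acid. Muscle fibres take up fatty acids set free from lipoproteins by lipoprotein lipase and oxidise them in mitochondria, and fat cells lying between the fibres store them as triglyceride. Nuclear receptors of the PPAR family bind fatty acids and switch on genes of fatty acid use, and PPARG does so chiefly in fat cells.

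The 6 libraries carried the signature of skeletal muscle. The summed signal of 14 skeletal muscle markers, among them the thick and thin filament genes and creatine kinase (CKM), was 528435, 551420 and 334697 in olive oil pigs 4, 7 and 12, against 440956, 481141 and 463796 in beef tallow pigs 2, 8 and 10. The Y-linked gene EIF1AY read 3.7 to 33.0 in the 12 gilts and 1649 to 2148 in the 12 barrows, so every array matched its labelled sex. Array medians averaged 155.93 ± 11.39 in olive oil gilts and 155.57 ± 2.84 in beef tallow gilts (SD, n = 3 each, exact permutation p = 1.0, two-sided, where the smallest p that 3 against 3 allows is 0.1). Ratios of 3' to 5' probe sets, a measure of RNA integrity, gave exact permutation p = 0.9 for GAPDH and 0.7 for actin (two-sided, n = 3 each). The actin ratio was nevertheless highest of the 6 gilts in pig 12, at 1.95, 2.19 and 3.06 in olive oil pigs 4, 7 and 12, against 2.5, 2.84 and 2.3 in beef tallow pigs 2, 8 and 10. Its part in the results was not tested.

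Pig 12 correlated least with the other arrays among brighter probe sets. Among the 14399 probe sets with a mean signal of at least 94.1, the 40th percentile over all arrays, its mean correlation with the other arrays was 0.904, the lowest of the series, ahead of pig 11 at 0.922 and pig 16 at 0.925. Over all non-control probe sets, dim ones included, pig 11 (0.912) and pig 16 (0.915) correlated less than pig 12 (0.917). Pig 12 deviated from the mean of pigs 4 and 7 by a median of 0.397 log2 units, with 1097 probe sets over 2-fold higher and 639 over 2-fold lower. Pig 7, in the same way, deviated by a median of 0.338, with 332 probe sets higher and 871 lower, and pig 4 by 0.267, while beef tallow pigs 2, 8 and 10 deviated by 0.273, 0.262 and 0.207. The skeletal muscle sum above was lowest in pig 12, and 13 of its 14 markers had their lowest value of the 6 gilts there. Over the 14399 brighter probe sets it was the lowest gilt at 24.7%. Pig 12 also had the highest summed signals of the 6 gilts for adipocyte markers (78725), leukocyte markers (18620), endothelial markers (17065) and smooth muscle and pericyte markers (71572). Other cell types did not follow it. Fibroblast markers were highest in pig 8 (51933, against 43757 in pig 12), as were Schwann cell and nerve markers (4666 against 1730). Erythrocyte markers were highest in pig 2 (1315, against 1093 in pig 12). In whole tissue, fewer cells of a type and less RNA per cell cannot be told apart. Pigs 4 and 7, like pig 12, correlated better with the beef tallow gilts (0.933, 0.932 and 0.925 for pigs 4, 7 and 12) than with their own group (0.927, 0.922 and 0.92).

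No gene was called different between the fats in gilts. Of 23999 probe sets, 0 passed an adjusted p of 0.05 (0%, limma with Benjamini-Hochberg adjustment, lowest adjusted p 0.884). At an unadjusted p under 0.05 there were 870 probe sets (3.63%), 354 with higher and 516 with lower signal under olive oil, fewer than the 1200 that this threshold passes on average when no gene differs. The median log2 difference, olive oil minus beef tallow, was -0.016. Without pig 12, 1 probe set passed (0.00417%) and 862 had an unadjusted p under 0.05 (3.59%), 284 higher and 578 lower. Removing that array changed the sign of the difference at 3843 of the 14399 brighter probe sets (26.7%), and only 126 of the 375 that had an unadjusted p under 0.05 with it also had one without it. These shares were computed for pig 12 alone, so they do not show an effect particular to that pig. Without pig 7 instead, 1501 of the 23999 probe sets had an unadjusted p under 0.05 (limma). A p that misses the threshold does not show equal levels, and the genes below are described by their values. Each of them had an adjusted p of 1 in gilts with all 3 olive oil pigs (limma), and adjusted p-values from 0.492 upward without pig 12.

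The 12 genes with the smallest unadjusted p and higher signal under olive oil are described first, and none was called. B4GALT5, a galactosyltransferase that makes lactosylceramide, read 1094, 957 and 1095 in olive oil pigs 4, 7 and 12, against 602, 808 and 809 in beef tallow pigs 2, 8 and 10. The 2 groups did not overlap, pig 12 was level with pig 4, and the log2 difference was 0.51 ± 0.15 (SE, unadjusted p = 0.00235) and 0.48 ± 0.17 without pig 12. GM2A, the lysosomal activator protein that presents ganglioside GM2 for breakdown, read 378, 278 and 545 in olive oil gilts, against 194, 207 and 237 in beef tallow gilts. Here too the groups did not overlap, with a log2 difference of 0.86 ± 0.26, and 0.61 ± 0.28 without pig 12. ENPP2, autotaxin, which produces lysophosphatidic acid, read 313, 195 and 565 in olive oil gilts, against 111, 218 and 135 in beef tallow gilts. Pig 7 lay below beef tallow pig 8, so the groups overlapped, and the log2 difference of 1.13 ± 0.36 was 0.73 ± 0.36 without pig 12. ANO6, a phospholipid scramblase, had a log2 difference of 0.49 ± 0.16, and 0.38 ± 0.17 without pig 12. Its groups overlapped, with olive oil pig 4 (1358) below beef tallow pig 2 (1472). KHK, ketohexokinase, which phosphorylates fructose, read 140, 111 and 121 in olive oil gilts, against 53.6, 98.8 and 20.3 in beef tallow gilts. Of the 3 beef tallow values 2 were below the 94.1 filter level, so no fold is given for it.

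Among the others of these genes, ARPC4, a subunit of the actin-branching Arp2/3 complex, read 575, 422 and 536 in olive oil gilts, against 378, 380 and 276 in beef tallow gilts. These did not overlap, and the log2 difference was 0.57 ± 0.18 with pig 12 and 0.53 ± 0.21 without it. MYL9, a myosin light chain of smooth muscle, read 976, 1056 and 2812 in olive oil gilts, against 824, 859 and 573 in beef tallow gilts. The groups did not overlap, yet pig 12 was over 2-fold above every other gilt, and the log2 difference of 0.94 ± 0.32 was 0.45 ± 0.27 without it. The ubiquitin ligase PJA1 (1.13), the transcription factor NFIA (0.57), the RNA-binding protein UNK (0.56) and the TEAD cofactor VGLL4 (0.67) all had smaller log2 differences without pig 12, at 0.75, 0.33, 0.35 and 0.41. RBBP6, another ubiquitin ligase, had a log2 difference of 0.59 ± 0.19 and groups that did not overlap, but its 2 other probe sets above the filter had the opposite sign.

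**Figure D1:**
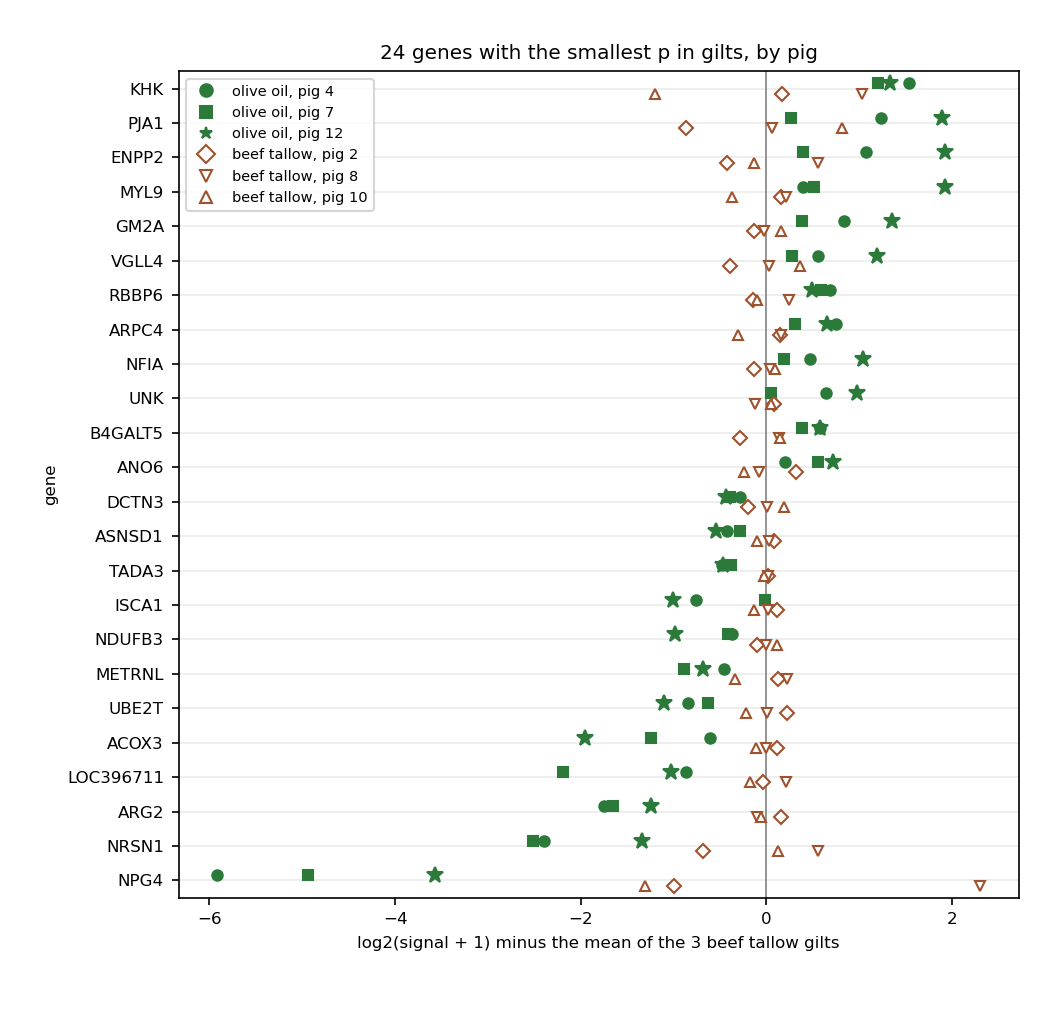
Log2(signal + 1) of each gilt minus the mean of the 3 beef tallow gilts (horizontal axis, log2 units) for the 12 genes with the smallest unadjusted p in each direction, with filled green symbols for olive oil pigs and open brown symbols for beef tallow pigs. Pig 12, the star, lies furthest from the beef tallow gilts for MYL9, ENPP2 and ACOX3, and level with pig 4 for B4GALT5.

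The 12 genes with the smallest unadjusted p and lower signal under olive oil were likewise not called. ACOX3, a peroxisomal oxidase of branched-chain acyl-CoA, read 299, 192 and 117 in olive oil gilts, against 493, 454 and 421 in beef tallow gilts. All 3 olive oil gilts were below all 3 beef tallow gilts, with a log2 difference of -1.27 ± 0.35 (SE, unadjusted p = 0.00139) and -0.92 ± 0.36 without pig 12. NDUFB3, a subunit of respiratory complex I, read 4572, 4457 and 2979 in olive oil gilts, against 5518, 5878 and 6393 in beef tallow gilts. These groups did not overlap either, and the log2 difference of -0.59 ± 0.20 was -0.39 ± 0.20 without pig 12. ISCA1, which helps assemble iron-sulphur clusters, read 3138, 5255 and 2647 in olive oil gilts, against 5737, 5395 and 4863 in beef tallow gilts, with pig 7 inside the beef tallow range and a log2 difference of -0.59 ± 0.20.

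Several lower genes differed little between pig 12 and its group mates. TADA3, an adaptor of histone acetyltransferase complexes, read 309, 332 and 313 in olive oil gilts, against 435, 437 and 423 in beef tallow gilts. The values within each fat were close, and the log2 difference was -0.44 ± 0.15 with pig 12 and -0.43 ± 0.17 without it. METRNL, the secreted protein meteorin-like, read 533, 396 and 456 in olive oil gilts, against 798, 858 and 579 in beef tallow gilts, with a log2 difference of -0.68 with and without pig 12. DCTN3, a dynactin subunit (-0.37 ± 0.13), ASNSD1 (-0.42 ± 0.13) and the ubiquitin-conjugating enzyme UBE2T (-0.86 ± 0.28) also had groups that did not overlap. Over 5356 genes with a probe set above the filter, the groups did not overlap with olive oil higher for 126 (2.35%) and with olive oil lower for 185 (3.45%).

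The widest differences were of dim probe sets. NPG4, a protegrin, an antimicrobial peptide of pig white blood cells, read 2.9, 6.7 and 18.9 in olive oil gilts, against 118, 1167 and 94.5 in beef tallow gilts. All olive oil values were below the 94.1 filter level and pig 8 was far above the other beef tallow gilts. Set against that level, the signal was at least 2.49-fold lower in olive oil gilts, and the fitted log2 difference of -4.82 ± 1.10, which is no bound, was -3.66 without pig 8. The bound itself was 1.12-fold without pig 8 and 3.91-fold without pig 10. NRSN1, neurensin, a neuronal vesicle protein, read 30.9, 28.3 and 65.1 in olive oil gilts, against 103, 246 and 182 in beef tallow gilts, at least 1.76-fold lower in olive oil gilts by the same reckoning. Its bound was 1.45-fold without pig 8 and 2.23-fold without pig 2. ARG2, a mitochondrial arginase, was below the filter level in all 6 gilts on this probe set, and its other probe set had the opposite sign. SOD3, the extracellular superoxide dismutase, went the other way, with 162, 196 and 321 in olive oil gilts, against 68.2, 67.2 and 89.4 in beef tallow gilts, at least 2.29-fold higher in olive oil gilts. That bound was 1.88-fold without pig 12 and 2.65-fold without pig 4.

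The 1 probe set that passed without pig 12 has no gene symbol in the annotation. It read 97.5, 49.9 and 209 in olive oil pigs 4, 7 and 12, against 304, 204 and 246 in beef tallow pigs 2, 8 and 10. Pig 12 lay inside the beef tallow range, whereas pigs 4 and 7 lay below it. Its log2 difference was -1.81 ± 0.28 without pig 12 (limma, adjusted p = 0.039) and -1.29 ± 0.33 with it. The call was lost in a fit that also left out pigs 11 and 16 and in a fit of the remaining 5 arrays alone. Of the named genes with the smallest p without pig 12, calcineurin subunit PPP3CA read 3433, 3047 and 2108 in olive oil gilts, against 2527, 1494 and 1914 in beef tallow gilts, with pig 12 inside the beef tallow range. Its log2 difference was 0.74 ± 0.24 without pig 12 and 0.54 ± 0.23 with it, and 1 of its 2 other probe sets had the opposite sign. The tRNA methyltransferase TRMT1 had a log2 difference of 0.59 ± 0.19 without pig 12 and 0.34 ± 0.20 with it. The lipid transfer protein PITPNC1 read 90.9, 66.7 and 248 in olive oil gilts, against 118, 215 and 239 in beef tallow gilts. Without pig 12 both olive oil values were below the filter level, which gives at least 1.93-fold lower signal in olive oil gilts, and with it the groups overlapped.

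Genes of oxidative phosphorylation had mostly lower signal under olive oil, by an amount that depended on pig 12. Of 46 such genes, 45 had a negative difference and ATP5I a positive one, with a median of -0.30 against -0.01 over all 5356 genes. None passed the adjusted threshold. An unadjusted p under 0.05 was found for 7 of the 46, all lower, beside 72 of all 5356 genes in that direction. Over all probe sets, dim ones included, 3.63% had one in either direction. Groups did not overlap for 5 of the 46, all lower, beside 3.45% of all genes in that direction. NDUFA1, a complex I subunit, read 10258, 9141 and 5908 in olive oil gilts, against 10981, 12834 and 13204 in beef tallow gilts. NDUFB9, another, read 9648, 9087 and 6001 in olive oil gilts, against 11888, 11412 and 11691 in beef tallow gilts. In both genes all olive oil gilts were below all beef tallow gilts and pig 12 was lowest. Their log2 differences were -0.58 ± 0.22 and -0.53 ± 0.21, and -0.34 ± 0.21 and -0.32 ± 0.21 without pig 12. Pig 12 was the lowest of the 6 gilts at 44 of the 46 genes, while over all 14399 probe sets above the filter it was lowest at 24.7%. Without it the median was -0.07, with 29 genes negative and 17 positive, and without pig 4 the median was -0.48, with all 46 negative. The summed signal of the list was 491652, 440942 and 280120 in olive oil gilts, against 442958, 508869 and 512744 in beef tallow gilts, so pig 4 lay within the beef tallow range and pig 7 just below it. The skeletal muscle marker sum was lowest in pig 12 as well, and its part in the result was not tested.

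Medians of other mitochondrial fuel genes were also nearer 0 without pig 12. Of 23 tricarboxylic acid cycle genes 20 had a negative difference, with a median of -0.16 with pig 12 and 0.03 without it, and of -0.35 without pig 4 and -0.09 without pig 10. SUCLG2, a subunit of succinyl-CoA synthetase, read 2954, 3214 and 2492 in olive oil gilts, against 4071, 3700 and 4161 in beef tallow gilts, with no overlap and a log2 difference of -0.47 ± 0.23. Of 23 fatty acid oxidation genes 19 had a negative difference, with a median of -0.19 with pig 12 and -0.02 without it, and of -0.33 without pig 4 and -0.10 without pig 10. The thiolase ACAA2 read 2933, 1854 and 1380 in olive oil gilts, against 2073, 2972 and 3682 in beef tallow gilts, and these overlapped. CPT1B, which carries long-chain fatty acids into mitochondria, had a log2 difference of -0.26 ± 0.36, and PDK4, which restrains glucose oxidation when fatty acids are used, one of 0.05 ± 0.28. The coactivator PPARGC1A, a driver of mitochondrial genes, read 19384, 2081 and 10791 in olive oil gilts, against 7329, 12231 and 15495 in beef tallow gilts. Its olive oil values spanned the whole beef tallow range and went beyond it at both ends.

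**Figure D2:**
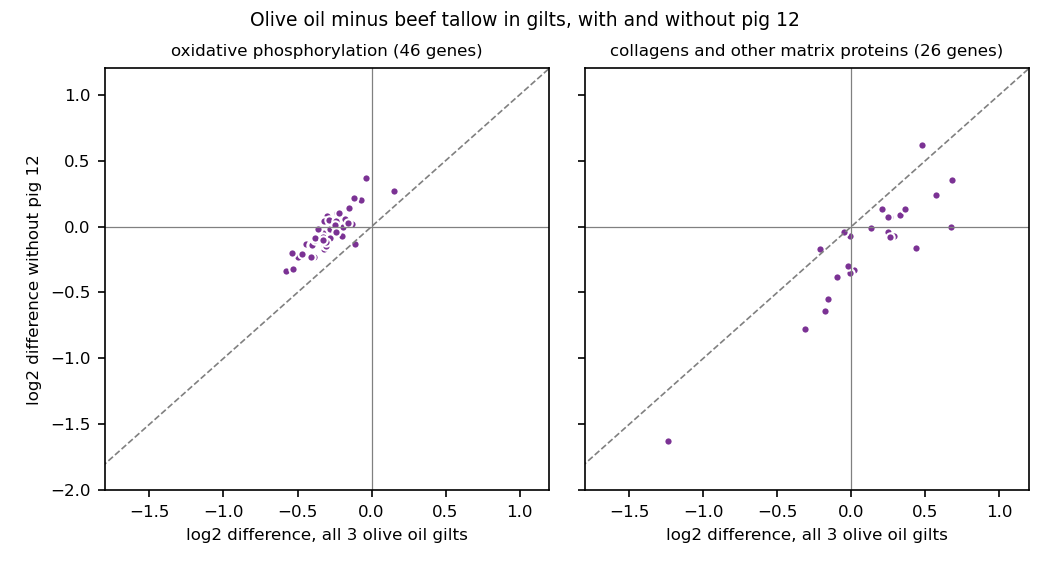
Each point is 1 gene of oxidative phosphorylation (left, 46 genes) or of the extracellular matrix (right, 26 genes), placed by its log2 difference, olive oil minus beef tallow, with all 3 olive oil gilts (horizontal axis) and without pig 12 (vertical axis). On the left 45 points lie left of 0, and the median moves to -0.07 on the vertical axis, and on the right the median of 0.23 moves to -0.07.

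Markers of smooth muscle and leukocytes had mostly positive differences with all 3 olive oil gilts. Of 10 smooth muscle and pericyte markers 8 had a positive difference, with a median of 0.40, and 0.20 without pig 12. TAGLN, an actin-binding protein of smooth muscle, read 4426, 4206 and 10712 in olive oil gilts, against 3142, 4117 and 3339 in beef tallow gilts. The groups did not overlap, but pigs 4 and 7 were only just above beef tallow pig 8, and the log2 difference of 0.74 ± 0.33 was 0.30 ± 0.31 without pig 12. The 15 endothelial markers had a median of 0.02, with 10 positive, and of -0.07 without pig 12, with 4 positive, and the 2 members whose groups did not overlap were lower under olive oil. VWF, von Willebrand factor of endothelium, had a log2 difference of 0.54 ± 0.21 and 0.39 ± 0.23 without pig 12, while KDR, a receptor for vascular endothelial growth factor, had one of -0.57 ± 0.31.

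Of 26 collagens and other matrix proteins 16 had a positive difference, with a median of 0.23, and 8 had one without pig 12, with a median of -0.07. Without beef tallow pig 2 the median was 0.05, with 15 positive. Pig 12 was the highest of the 6 gilts at 21 of the 26 genes, while over all 14399 probe sets above the filter it was highest at 29.3%. All 8 matrix remodelling genes had a positive difference (median 0.33), 4 of 8 did without pig 12 (median -0.03) and 5 of 8 without pig 2 (median 0.14), while the median was 0.63 without pig 7. TIMP3, an inhibitor of matrix metalloproteinases, was an exception in that pig 12 was the lowest olive oil gilt, with 1060, 1238 and 954 in olive oil gilts, against 686, 793 and 883 in beef tallow gilts. Its log2 difference was 0.46 ± 0.21 with pig 12 and 0.55 ± 0.24 without it. PLAT, tissue plasminogen activator, read 509, 622 and 1649 in olive oil gilts, against 285, 652 and 324 in beef tallow gilts, which overlapped.

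Of 16 leukocyte markers 13 had a positive difference, with a median of 0.25 and of -0.01 without pig 12. Leaving out a beef tallow gilt gave 0.07 without pig 10 and 0.47 without pig 8, and the median was 0.46 without olive oil pig 4. The macrophage receptor MRC1 read 383, 513 and 1239 in olive oil gilts, against 305, 604 and 317 in beef tallow gilts, and the macrophage scavenger receptor CD163 read 966, 1427 and 2610 in olive oil gilts, against 769, 1270 and 1133 in beef tallow gilts. In both genes pig 12 was more than 1.5 times every other gilt, and the groups overlapped. Of 15 inflammatory cytokine and chemokine genes 12 had a positive difference (median 0.28, 0.07 without pig 12, 0.12 without pig 2 and 0.52 without pig 8), among them the chemokine CCL19 with 245, 214 and 729 in olive oil gilts, against 158, 233 and 163 in beef tallow gilts. The summed leukocyte marker signal was 12192, 11913 and 18620 in olive oil gilts, against 9661, 15498 and 9687 in beef tallow gilts, and its part in the result was not tested.

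**Figure D3:**
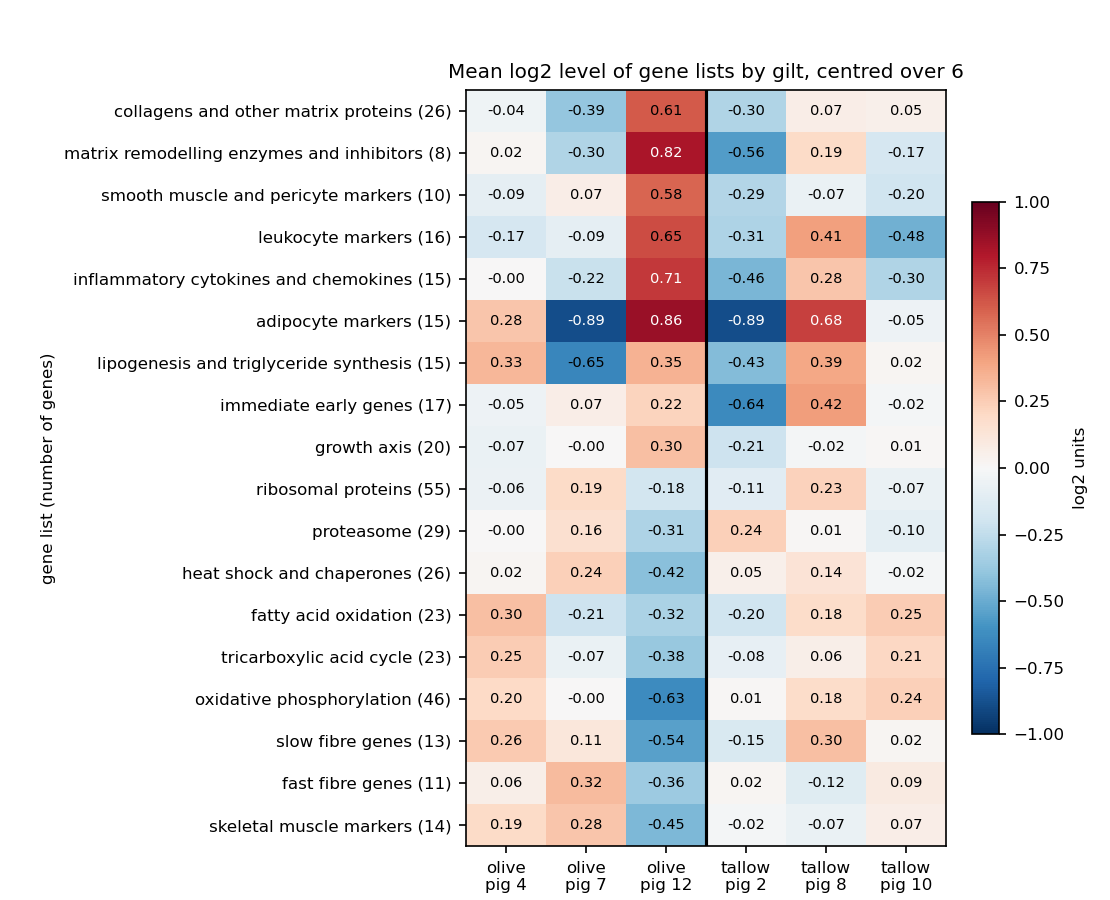
Mean log2 level of each gene list in each gilt, centred over the 6 gilts (colour and printed value, log2 units), with olive oil pigs 4, 7 and 12 left of the line and beef tallow pigs 2, 8 and 10 right of it. Pig 12 has the highest value for matrix, smooth muscle, leukocyte and adipocyte genes and the lowest for oxidative phosphorylation and muscle fibre genes, and adipocyte values differ within each fat.

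Genes of fat cells and fat synthesis varied more within each fat than between the fats. The summed signal of 15 adipocyte markers was 64642, 33917 and 78725 in olive oil gilts, against 29706, 72489 and 47432 in beef tallow gilts. The median difference of the list was 0.17, and its sign turned without pig 12 (-0.23) and also without beef tallow pig 2 (-0.24). Without pig 7 or without pig 8 it was 0.56, and without pig 4 it was 0.07. ADIPOQ, which encodes the fat cell hormone adiponectin, read 5814, 825 and 11439 in olive oil gilts, against 679, 8944 and 3118 in beef tallow gilts. Each fat held 1 gilt under 1000 and others several times higher, and the log2 difference was 0.51 ± 0.77. FABP4, the fatty acid carrier of fat cells, read 20081, 8238 and 23254 in olive oil gilts, against 6625, 24254 and 12127 in beef tallow gilts. LIPE, hormone-sensitive lipase, read 3544, 593 and 6655 in olive oil gilts, against 452, 3691 and 2181 in beef tallow gilts. Pigs 7 and 2 were the low gilts of their fats in all of these genes.

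The same pigs were low for genes of fatty acid synthesis. SCD, the desaturase that makes oleic acid from stearic acid, read 805, 168 and 1036 in olive oil gilts, against 308, 1024 and 678 in beef tallow gilts, a log2 difference of -0.20 ± 1.07. FASN, fatty acid synthase, read 890, 207 and 847 in olive oil gilts, against 349, 604 and 671 in beef tallow gilts, a log2 difference of 0.05 ± 0.78, and its 2 other probe sets had the opposite sign. PPARG had a log2 difference of 0.15 ± 0.54, LPL (lipoprotein lipase) -0.03 ± 0.28 and LEP (leptin) -0.11 ± 0.37. Pig 7 was over 4-fold below pigs 4 and 12 in both SCD and FASN. Of 15 lipogenesis genes 8 had a positive and 7 a negative difference (median 0.05, with a range of -0.24 to 0.26 when 1 gilt was left out), and of 22 genes of fatty acid uptake and fuel switching 11 had each sign (median -0.01, range -0.24 to 0.23). PLIN2, which coats lipid droplets, read 1230, 667 and 612 in olive oil gilts, against 1221, 1396 and 1049 in beef tallow gilts, and only pig 4 overlapped the beef tallow range.

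Contractile and growth genes had small median differences. The 14 skeletal muscle markers had a median difference of 0.00, of 0.22 without pig 12, when all 14 were positive, and of -0.13 without pig 7, when 1 was. MYH7, the slow myosin heavy chain, read 48705, 44582 and 27354 in olive oil gilts, against 36898, 47601 and 41198 in beef tallow gilts, a log2 difference of -0.09 ± 0.25. Of 20 growth axis genes 13 had a positive difference (median 0.13, and 0.02 to 0.21 when 1 gilt was left out, lowest without pig 2 and highest without pig 8). GHR, the growth hormone receptor, read 823, 708 and 1047 in olive oil gilts, against 478, 719 and 587 in beef tallow gilts, with pig 7 just inside the beef tallow range and a log2 difference of 0.53 ± 0.23, or 0.38 ± 0.26 without pig 12. IGF1, the growth factor made under its control, had a log2 difference of 0.09 ± 0.28. Of 29 proteasome genes 26 had a negative difference, with a median of -0.11, of 0.00 without pig 12, of -0.01 without pig 2 and of -0.21 without pig 7. Of 26 heat shock and chaperone genes 21 had a negative difference (median -0.10, 0.05 without pig 12 and -0.26 without pig 7), and of 55 ribosomal protein genes 40 did (median -0.04, 0.05 without pig 12, 0.06 without pig 8 and -0.16 without pig 7). The ubiquitin ligase FBXO32, a marker of muscle wasting, read 5023, 797 and 2772 in olive oil gilts, against 4511, 2630 and 10528 in beef tallow gilts, which overlapped.

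The clock gene PER1 was among the steadier differences within these lists. It read 3638, 3984 and 3214 in olive oil gilts, against 2825, 2930 and 2919 in beef tallow gilts. The groups did not overlap, and the log2 difference was 0.32 ± 0.15 with pig 12 and 0.40 ± 0.17 without it. Of the 7 clock genes measured, 5 had a negative difference (median -0.18, and 0.03 without pig 4).

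The same fats were then compared in barrows to see whether the sexes differed. Barrows gave 0 calls as well (0%, limma), with 2828 probe sets below the unadjusted threshold of 0.05 (11.8%). The sexes share 1 estimate of spread, and 97 probe sets passed in barrows when pig 12, a gilt, was left out of the fit. The difference between the sexes, tested as an interaction, was called for 0 probe sets (0%, lowest adjusted p 0.404), while 2220 had an unadjusted p under 0.05 (9.25%), and 1400 without pig 12. With the 40th percentile filter and without pig 12, an alternative chosen after seeing the data, 1 unnamed probe set passed the interaction (adjusted p = 0.041) and 151 passed in barrows. Centring each array on its median instead changed the median log2 difference over all probe sets in barrows to 0.085, against -0.098 as deposited. It also changed the split at unadjusted p under 0.05, to 1970 higher and 1082 lower in barrows, against 807 and 2021 as deposited, and for the interaction to 862 and 1448, against 1490 and 730. In gilts that median was -0.017 after centring.

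Immediate early genes, which respond within minutes to stimulation, had larger differences in barrows than in gilts. NR4A3, an orphan nuclear receptor of this class, read 3182, 990 and 1782 in olive oil gilts, against 871, 1551 and 3481 in beef tallow gilts. These ranges were nearly the same, with a log2 difference of 0.08 ± 0.56, whereas in barrows it was 2.94 ± 0.56 (limma, adjusted p = 0.062). The gilt minus barrow difference was -2.85 ± 0.80 (adjusted p = 0.404). ATF3, a stress-induced transcription factor, had a log2 difference of -0.20 ± 0.45 in gilts and 2.08 ± 0.45 in barrows. Of the 17 immediate early genes 12 had a positive difference in gilts (median 0.13) and all 17 in barrows (median 0.73). In gilts the direction depended on single arrays, with 6 of 17 positive without beef tallow pig 2 (median -0.05) and 16 of 17 without pig 8 (median 0.43).

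Matrix genes gave the contrast in the other direction. The 26 matrix genes had a median of 0.23 in gilts and -0.90 in barrows, and only 1 was positive in barrows. COL1A2, a chain of type I collagen, read 1509, 944 and 2117 in olive oil gilts, against 1374, 1588 and 1715 in beef tallow gilts, a log2 difference of -0.10 ± 0.47 in gilts and -1.73 ± 0.47 in barrows. FKBP10, a collagen chaperone, had -0.18 ± 0.32 in gilts and -1.91 ± 0.32 in barrows. CHRNA1, the alpha subunit of the muscle acetylcholine receptor, had -0.11 ± 0.51 in gilts and -2.95 ± 0.51 in barrows, with a gilt minus barrow difference of 2.84 ± 0.72 (limma, adjusted p = 0.404). Log2 SDs in beef tallow barrows were 1.57 for COL1A2, 0.59 for FKBP10 and 1.66 for CHRNA1, against 0.23, 0.30 and 0.36 in olive oil barrows. The beef tallow barrows include pig 16, whose actin 3' to 5' ratio of 3.57 was the highest of the series. Its part was not tested, and no barrow was left out on its own. GM2A and ENPP2, described above, had log2 differences of opposite sign in barrows, -0.71 ± 0.26 and -1.12 ± 0.36, and ACOX3 one of 0.64 ± 0.35. The glutathione peroxidase GPX1 had 0.40 ± 0.27 in gilts and -1.35 ± 0.27 in barrows. SPP1, osteopontin, was negative in both sexes, with -1.24 ± 0.70 in gilts and -3.16 ± 0.70 in barrows. Its log2 SD was 1.72 in beef tallow barrows and 0.51 in olive oil barrows. GM2A, ENPP2, ACOX3 and GPX1 were among the genes selected for a small p of the gilt minus barrow difference. Their contrast between the sexes thus follows from the choice, and each had an adjusted p of 0.404 for it (limma). COL1A2, FKBP10, CHRNA1 and SPP1, like NR4A3 and ATF3 above, belonged to the set fixed with earlier results of these data known. NR4A3 was also selected, through its other probe set, for a small p of the gilt minus barrow difference. Adipocyte markers had a median of 0.17 in gilts and -0.72 in barrows, and their part in the matrix result was not tested.

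**Figure D4:**
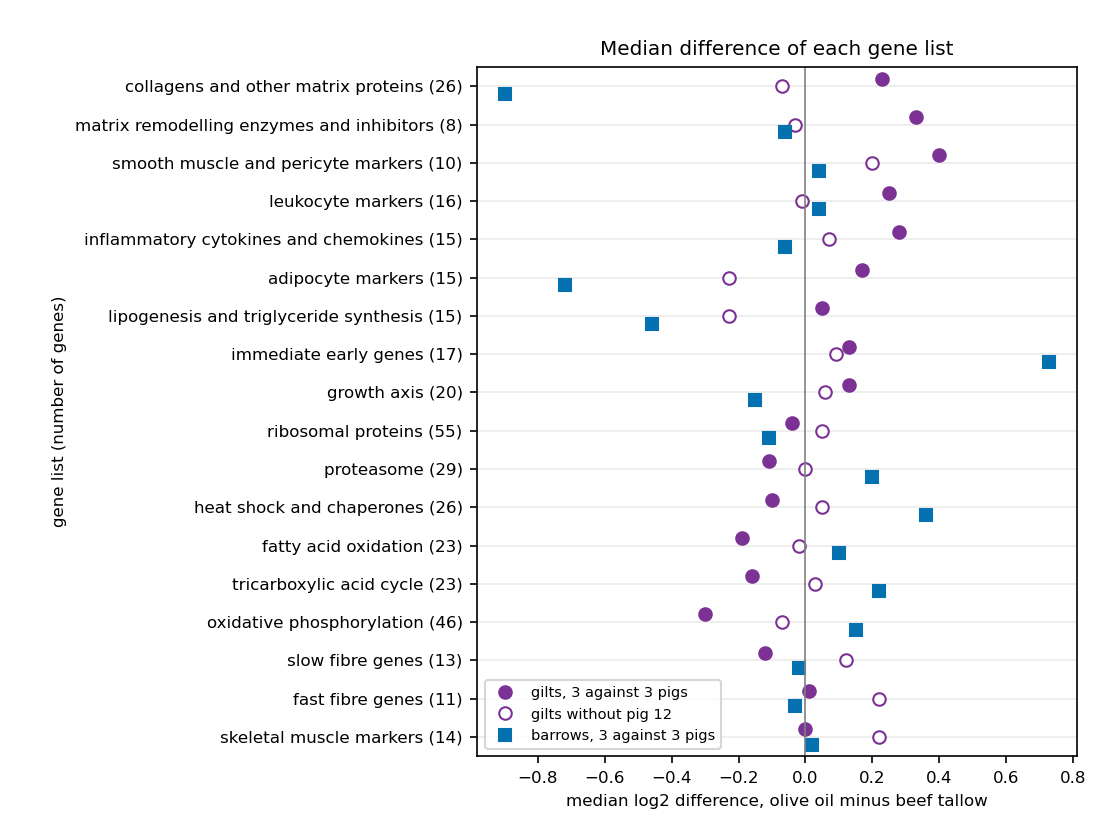
Median log2 difference, olive oil minus beef tallow, of each gene list (number of genes in brackets) in gilts (filled circles), in gilts without pig 12 (open circles) and in barrows (squares). Matrix genes have medians of 0.23, -0.07 and -0.90 and immediate early genes 0.13, 0.09 and 0.73, in that order.

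The next genes were selected for the widest deviation of pig 12 from pigs 4 and 7, so that the deviation follows from the choice and is a description with no test. A2M, the protease inhibitor alpha-2-macroglobulin, read 1929 in pig 12, against 42.3 and 66.3 in pigs 4 and 7 and 75.0 to 154 in beef tallow gilts. ACTG2, the gamma actin of smooth muscle, read 4875 in pig 12, against 349 and 676 in pigs 4 and 7 and 424 to 454 in beef tallow gilts. GATA6, a transcription factor of visceral and vascular tissue, read 478 in pig 12, against 80.2 and 48.2 in pigs 4 and 7 and 58.7 to 76.4 in beef tallow gilts. In these 3 genes pig 12 alone was high. PCK1, which makes glycerol phosphate for triglyceride in fat cells, was high in several gilts instead, with 1142, 74.1 and 3349 in olive oil gilts, against 104, 1530 and 521.9 in beef tallow gilts. The lowest values of pig 12 against pigs 4 and 7 were of dim probe sets, such as TTLL1, a tubulin polyglutamylase subunit, at 4.5 in pig 12, against 131 and 152 in pigs 4 and 7.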

How the data were processed

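The authors summarised each array to 1 intensity value per probe set on a linear scale and deposited these as 1 column per pig, per the file headers. Neither labels nor headers name the summarisation method. In the deposited values, the mean after trimming 2% at each end was 500.1 to 500.2 on every array, so arrays share a scale but not a distribution. Of 24123 probe sets 124 are controls. Symbols came from GEO's platform annotation, updated through RefSeq (Sscrofa11.1), which matched 9961 of 10069 probe sets with 1 symbol, while 198 had several symbols and 13732 none. Groups were taken from sample titles.

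Log2(signal + 1) was fitted in R 4.3.3 with limma 3.58.1 (lmFit, contrasts.fit, eBayes with an intensity trend), with 8 group means over all 24 arrays, no covariate, 16 residual degrees of freedom, two-sided tests and Benjamini-Hochberg adjustment over 23999 probe sets (threshold 0.05). The same fit was repeated without pig 12. The code was tested on simulated data. Whether replicate pigs shared a pen is not known, so p-values measure the spread between these pigs.

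Genes named are, among probe sets at or above the 40th percentile, the 12, 8 and 6 with the smallest p in each direction in gilts, in gilts without pig 12 and in the interaction, the 8 with the widest deviation of pig 12 each way, a fixed set of metabolic and marker genes, and the 3 with the smallest p of each list. Not all of them are printed. A gene selected by p or by deviation stands for its probe set of smallest p or widest deviation. In the fixed set and in lists it stands for its brightest probe set. The comparison, genes and lists were chosen with earlier results of these data known. Array-wide measures were compared by exact permutation tests. Alternatives were other filters, normalizations, a pseudocount of 16, other estimates of spread and left-out arrays. Analysis used Python 3.11.15.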

Additional observations from a re-analysis of the deposited data

How the results depend on the processing

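No probe set passed in gilts under any of the other filters, scalings, pseudocount or spread estimates, and leaving out 1 pig at a time gave 0 to 1. The count at unadjusted p under 0.05 was 391 and 253 with the 40th and 60th percentile filters and 211 with 1 probe set per gene, where fewer probe sets were tested, and 779 to 1501 with 1 pig left out, highest without pig 7. The call without pig 12 became 0 without pigs 11, 12 and 16, and 0 with only the 5 remaining arrays, an alternative chosen after seeing the data. With the 40th percentile filter, also chosen then, it was 1, with 151 in barrows and 1 for the interaction. In barrows the count was 13 and 7 with the 2 filters, 6 with quantile normalization, 13 with median centring, 7 with a pseudocount of 16, 25 with array weights, 1 without pigs 11, 12 and 16, 15 with 1 probe set per gene, and 0 to 97 with 1 gilt left out (32 without pig 7, 97 without pig 12). The interaction gave 0 to 1 with 1 gilt left out, 1 without pig 7. The cause was not tested.

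Of 115 genes followed through 18 alternatives, 91 showed no change of sign in gilts and 0 passed the threshold (lowest adjusted p 0.267, limma). Filters, other estimates of spread and left-out arrays of other groups do not alter the gilt means. Only normalizations, the pseudocount, array weights and left-out gilts could therefore change a sign. Many of these genes were also chosen for a small p in the same gilts, so the count of 91 is no measure of robustness. Pigs 11 and 16 are in neither compared group, so leaving out pigs 11, 12 and 16 gives the same differences as leaving out pig 12. Without pigs 11, 12 and 16 the log2 difference turned to 0.02 for DNAJB6, -0.28 for FASN, -0.47 for PPARG, 0.11 for CPT1B, -0.13 for UCP3, -0.28 for ADIPOQ, 0.16 for MYH7, 0.41 for ATF3, -0.04 for CFD and -0.09 for LIPE. With array weights it was -0.01 for PPARG, 0.04 for MYH7 and 0.17 for ATF3, and with quantile normalization 0.07 for LPL. With 1 pig left out the ranges that crossed 0 were -0.47 to 1.61 for ADIPOQ, -0.52 to 0.41 for ATF3, -0.04 to 0.45 for CFD, -0.35 to 0.18 for CHRNA1, -0.38 to 0.20 for COL1A2, -0.54 to 0.11 for CPT1B, -0.69 to 0.01 for DDIT3, -0.40 to 0.02 for DNAJB6, -0.09 to 0.78 for DUSP1, -0.13 to 0.81 for FABP4, -0.31 to 0.74 for FASN and -0.55 to 0.14 for FKBP10. Further ranges were -0.21 to 0.26 for IGF1, -0.55 to 0.35 for LEP, -0.24 to 1.66 for LIPE, -0.32 to 0.32 for LPL, -0.25 to 0.16 for MYH7, -0.39 to 0.61 and -0.75 to 0.43 for the 2 probe sets of NR4A3, -0.14 to 0.29 for PDK4, -0.56 to 0.85 for PPARG, -1.24 to 0.37 for PPARGC1A, -0.70 to 0.61 for SCD and -0.13 to 0.37 for UCP3. The number of arrays limits the precision. No paired analysis was possible because the running numbers of the pigs are not shared between groups.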
